A study of Mus musculus with 9 samples.

Results

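Neurotransmitter receptors are the proteins with which a neuron reads the transmitter that reaches it. Ionotropic receptors are ion channels built from several subunits, and each subunit is the product of its own gene, so the set of subunit genes that a cell transcribes limits which receptors it can build. AMPA, kainate and NMDA receptors open in response to glutamate, GABA-A and glycine receptors are mostly chloride channels, and nicotinic receptors and the 5-HT3 receptor are cation channels opened by acetylcholine and serotonin. Metabotropic glutamate receptors and the remaining serotonin receptors signal through G proteins instead.

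The genes described here are the mouse genes whose symbols place them in these families, chosen by a rule on symbols that uses no measured value, with 2 of the 80 matching symbols left out. They number 78 of the 31053 genes in the day 4 feature table: 9 AMPA and kainate receptor genes, 7 NMDA, 8 metabotropic glutamate, 19 GABA-A, 5 glycine, 14 nicotinic and 14 serotonin receptor genes, and 2 antisense RNAs that carry a receptor gene's name, Chrna1os and Grin1os. All 78 were present under the same symbol in the day 10 table.

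The data are single-cell RNA counts from cultures in which mouse embryonic fibroblasts (MEFs) were converted to induced neurons (iNs) by the BAM genes, a set of neural transcription factors. Every culture, WT included, received the BAM genes by lentivirus under doxycycline control. Cultures of WT, Per1-/- and Per2-/- MEFs were sampled on days 4, 7 and 10 of doxycycline, with 1 library per genotype and day and 9 libraries in all. Per1-/- and Per2-/- MEFs came from mice with the targeted allele Per1tm1Drw or Per2tm1Drw of a period gene of the circadian clock. MEFs of several embryos were pooled, and an embryonic fibroblast preparation holds other cell types as well.

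Each library measured 3′ ends of transcripts tagged with unique molecular identifiers (UMIs), so that 1 UMI stands for 1 captured molecule and gene length does not enter the level. After removal of low-quality barcodes and doublets 73557 of 95603 barcodes were kept. The median depth of the kept cells was 8041 UMI in the WT library of day 10, where 55.4% of barcodes passed the limits, and 16281 to 27076 UMI in the other 8. Pairs of libraries shared 13 to 365 cell barcodes, with a median of 38. The 3′ counts of Per1 (9.11 to 10.3 CPM, counts per 1e6 UMI of the library, in the libraries labelled Per1-/- against 6.35 to 7.87 in the others) and of Per2 (4.98 to 6.47 against 2.59 to 3.16) were not lower in the mutants, so they do not check the genotype labels. Day 10 was counted with another feature table and another version of the counting software than days 4 and 7, and the effect of that change cannot be told apart from the effect of day 10.

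Cells were clustered without the 78 genes, and clusters were named from marker genes of each cell type. The ending "-like" marks that the names are rebuilt from markers. The neuron-like class held 7024 cells, 148 to 1633 in a library, and 15 of its 19 markers had their highest level there among the 8 named classes. Skeletal muscle-like cells (2974 cells, 14 of 16 markers highest there), macrophage-like cells (6347 cells, 15 of 15), Schwann-like cells (2509 cells, 9 of 11), astrocyte-like cells (812 cells, 12 of 12), mesothelial-like cells (462 cells, 10 of 11) and chondrocyte-like cells (791 cells, 6 of 7) also carried their markers. The 39907 fibroblast-like cells had the highest level of 4 of 15 fibroblast markers, the other 11 being higher in another named class. A further 12731 cells were left unnamed. Because the classes were drawn from the same cells, differences between classes are descriptions and carry no test.

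In neuron-like cells the receptor genes were dominated by a few members. Gria2, the AMPA receptor subunit that makes the channel impermeable to calcium, was by far the most abundant, at 367 CPM summed over libraries (95% Poisson interval 364 to 371). Glrb, the beta subunit that anchors glycine receptors at synapses, followed with 97.6 CPM (95.7 to 99.6). Grin1, the obligatory NMDA receptor subunit, reached 53.4 CPM. The order at the top was not the same on every day, and these sums weigh the libraries by their depth. Of the 78 genes, 17 had at least 10 CPM, 39 had under 1 CPM, and 5 had no UMI in any neuron-like cell (Chrna9, Gabra6, Gabrp, Gabrr1 and Grm6). Intervals on levels and shares cover counting error only.

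**Figure D1:**
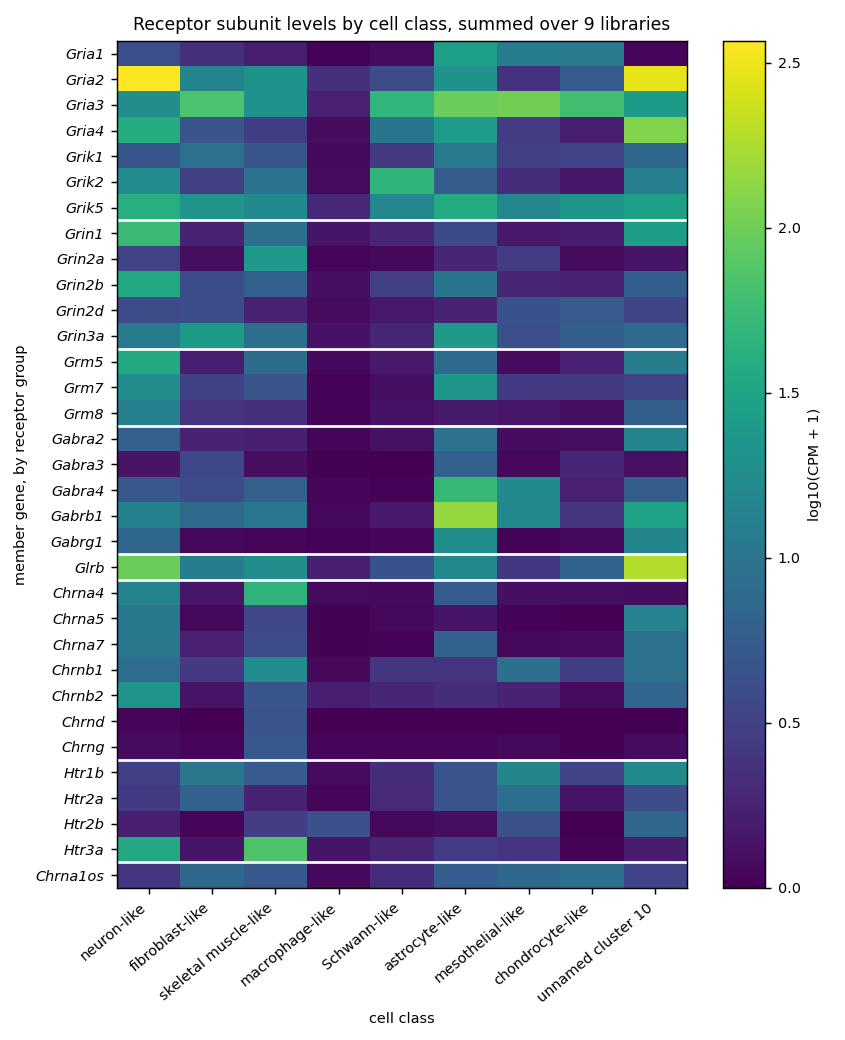
Level of 33 of the 36 receptor genes with at least 3 CPM in a named class, as log10(CPM + 1) of the UMI summed over the 9 libraries, with genes in rows by receptor family and cell classes in columns. Gria2 is brightest in neuron-like cells and in unnamed cluster 10, Gria3 is bright in fibroblast-, Schwann-, astrocyte-, mesothelial- and chondrocyte-like cells, and Htr3a, Chrna4 and Grin2a are bright in skeletal muscle-like cells.

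Among AMPA and kainate genes, Grik5, a kainate subunit that works only together with other subunits, was at 40.8 CPM (31.0 to 57.9 over the 9 libraries) and Gria4, an AMPA subunit, at 37.5 CPM (12.6 to 120). Gria2 alone gave 75.1% of the 489 CPM of the family. NMDA genes other than Grin1 were led by Grin2b, the subunit typical of immature neurons, at 35.1 CPM (9.66 to 94.8) and by Grin3a, which forms channels of low calcium flux, at 10.7 CPM (5.18 to 19.4). Of the metabotropic receptors, Grm5, which couples to phospholipase C, had 35.1 CPM (16.4 to 66.9), Grm7 17.1 CPM and Grm8 12.2 CPM, the last 2 being inhibitory presynaptic receptors in mature neurons.

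GABA-A subunits summed to 114 CPM. Among them were Gabrb1, a beta subunit, at 12.3 CPM (5.14 to 55.0) and Gabra2, an alpha subunit, at 5.17 CPM (1.28 to 15.6). The glycine receptor family was Glrb almost alone, with 98.4% of 99.2 CPM. The alpha subunits that glycine binds to were scarce, with Glra1 at 0.77 CPM, Glra2 and Glra3 both at 0.37 CPM. Nicotinic receptors were represented by Chrnb2 at 20.1 CPM (16.5 to 24.3) and Chrna4 at 13.2 CPM (1.59 to 19.3), which together form the main high-affinity nicotinic receptor of the brain, and by the accessory subunit Chrna5 at 9.86 CPM. Among serotonin receptors the ion channel subunit Htr3a had 34.4 CPM (3.18 to 48.0) and 82.5% of the family's UMI, while the G protein-coupled Htr1b had 2.08 CPM and Htr2a 1.75 CPM.

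Single cells were compared at an equal depth of 8000 UMI, which 5412 of the 7024 neuron-like cells reached and 1612 did not. At that depth 68.5% of neuron-like cells held a UMI of Gria2 (exact Clopper-Pearson interval 67.2% to 69.7%), against 0.856% of 3390 macrophage-like cells thinned in the same way, a cell type that should lack the gene. The share was 50.8% for Glrb, 30.3% for Grin1, 25.9% for Grik5 (1.03% of macrophage-like cells) and 19.1% for Gria4. Without thinning the Gria2 share was 74.3%, at a median depth of 11558 UMI. The number of receptor genes with a UMI in the same cell had a median of 4 in neuron-like cells, with quartiles of 3 and 5, and a median of 0 in macrophage-like cells.

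Grouped by transmitter, 83.3% of the neuron-like cells at 8000 UMI held at least 1 AMPA or kainate UMI, 51.3% a glycine receptor UMI, 45.3% a GABA-A UMI and 43.7% an NMDA UMI. Nicotinic, metabotropic glutamate and serotonin receptor UMIs were found in 35.4%, 33.3% and 15.02% of them. In macrophage-like cells these 7 shares lay between 0.295% and 2.80%. Free RNA in the droplets can give a cell a UMI of a gene it does not transcribe. The macrophage-like shares are a rough measure of that background in a cell type that should lack most of these receptors. Before thinning, macrophage-like cells had a median depth of 22080 UMI against 11558 UMI in neuron-like cells. Their shares may therefore understate the background of neuron-like cells. The serotonin share is no such measure, because Htr2b alone, in 1.86% of macrophage-like cells, gave most of it.

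**Figure D2:**
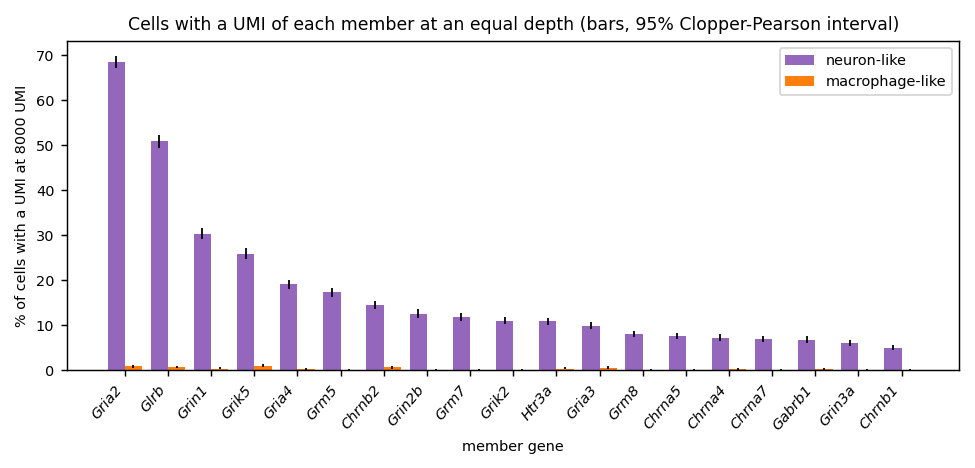
Percentage of cells with a UMI of each of 19 of the 20 receptor genes found in at least 5% of neuron-like cells, 1 not being shown, for neuron-like (purple) and macrophage-like (orange) cells thinned to 8000 UMI, with bars for 95% Clopper-Pearson intervals. The neuron-like share falls from 68.5% for Gria2 to 5.03% for Chrnb1, and the macrophage-like share is at most 1.03%, for Grik5.

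Not every receptor gene had its highest level in neuron-like cells. Of the 78, 29 were highest there (37.2%, where 28.6% of all 25685 detected genes were), 15 in astrocyte-like cells (background 14.1%), 14 in skeletal muscle-like cells (11.8%) and 20 in the other 5 classes. These were 6 in fibroblast-like (background 7.83%), 6 in mesothelial-like (8.2%), 3 in chondrocyte-like (7.11%), 3 in Schwann-like (10.3%) and 2 in macrophage-like cells (12.1%). Some highest levels were near 0, as Gabrr1 at 0.002 CPM in fibroblast-like and Chrna9 at 0.020 CPM in macrophage-like cells. Only 36 genes had at least 3 CPM in a named class. Of these, 13 were highest in neuron-like, 9 in astrocyte-like, 6 in skeletal muscle-like and 4 in mesothelial-like cells. Chondrocyte-like cells had 2, and fibroblast- and Schwann-like cells 1 each. The share of all genes at that level is not given here. When the 9 neuron-like levels were set against the 9 fibroblast-like levels, 23 of 78 receptor genes had every neuron-like library above every fibroblast-like library, which 20.5% of all genes also had, and 5 had every library below (Chrna1os, Gabra3, Gria3, Htr1b and Htr2a; 11.5% of all genes). Against skeletal muscle-like cells 14 of 74 detected receptor genes lay above in all libraries (9.98% of all genes) and 6 below (Chrna1os, Chrna4, Chrnb1, Chrnd, Chrng and Grin2a; 7.24%).

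The first question on time was whether the receptor genes of neuron-like cells differed between day 4 and day 7. UMI were summed over the neuron-like cells of each library, and the 9 sums were tested with edgeR's quasi-likelihood test with day and genotype as factors, a gene being called at a Benjamini-Hochberg adjusted p under 0.05 over all genes tested. Of the 78 genes 42 had enough UMI for the test. On day 7, 22 were called higher and 2 lower, where 16.7% of all 13896 genes tested were called, 9.38% higher and 7.31% lower. The median log2 fold change of the 42 was 0.61, and that of all genes was -0.00451. Genes that pass a filter through the days on which they are high are more likely to be called, so these counts describe the tested genes and not the whole set of 78.

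Each of the following gives the 3 libraries of a day in the order WT, Per1-/-, Per2-/-. Gria2 measured 199, 232 and 229 CPM on day 4, 499, 530.1 and 576 CPM on day 7, and 769, 596 and 608 CPM on day 10. The day 7 libraries and the day 10 libraries were all above those of day 4, with a log2 fold change of 1.28 (standard error 0.12, adjusted p = 0.000113) on day 7 and of 1.66 (0.12, adjusted p = 1.9e-06) on day 10. Gria4 went from 12.6, 15.7 and 22.0 CPM to 37.8, 24.8 and 54.9 CPM on day 7 and to 120, 106 and 85.6 CPM on day 10. The 3 days did not overlap, and the log2 fold changes were 1.26 (0.23) and 2.73 (0.23).

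Gria1, the AMPA subunit most tied to plasticity, was at 1.44, 2.66 and 1.12 CPM on day 4, 8.10, 9.53 and 7.499 CPM on day 7 and 0.954, 2.30 and 2.62 CPM on day 10. It rose on day 7 by 2.29 on the log2 scale (0.31, adjusted p = 0.000916), while the day 10 libraries overlapped those of day 4 (0.43, adjusted p = 0.363). Gria3 was the 1 AMPA gene called lower on day 7, at 15.2, 12.2 and 9.21 CPM after 21.0, 19.3 and 21.7 CPM (-0.80, SE 0.20, adjusted p = 0.0179). It lost the call without the WT or the Per2-/- library of day 7 or the Per2-/- library of day 4 (adjusted p 0.0541 to 0.124), and with cells classed one at a time its sign turned (0.24, adjusted p = 0.375). Of the kainate subunits, Grik1 was called higher on both days, at 2.36, 1.33 and 1.52 CPM on day 4 and 7.95, 5.30 and 11.1 CPM on day 10 (2.27, SE 0.29), and Grik5 on day 10 only (0.60, SE 0.12), with a difference of 0.38 and an adjusted p of 0.0574 on day 7. The day 7 call of Grik1 was lost without any 1 of 4 libraries (adjusted p 0.0653 to 0.155). In all, 4 of 9 tested AMPA and kainate genes were called higher on day 10 and none lower, where 24.6% of all genes tested were called higher and 23.8% lower.

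Of the 6 NMDA genes tested, 5 were called higher on day 10 (24.6% of all genes). Grin1 measured 37.4, 40.5 and 37.0 CPM on day 4, 65.8, 64.4 and 67.3 CPM on day 7, and 81.1, 77.8 and 86.9 CPM on day 10. The libraries of each day lay within a narrow range and the days did not overlap (0.78, SE 0.10, on day 7 and 1.18, SE 0.10, on day 10, adjusted p = 4.52e-06). Grin2b went from 10.8, 16.2 and 9.66 CPM to 94.8, 49.5 and 91.0 CPM on day 10, a log2 fold change of 2.64 (0.34), and Grin3a from 5.18, 6.58 and 10.7 CPM to 17.2, 17.0 and 17.2 CPM (1.30, SE 0.19). The remaining gene of the 6, Grin2c, was called lower (-2.08, SE 0.74, adjusted p = 0.0384) at 0 to 1.61 CPM in every library, a call that was lost or not tested without any 1 of 8 libraries.

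Of the metabotropic receptors tested, 4 of 4 were called higher on day 7 (9.38% of all genes) and 2 of 4 on day 10 (24.6%). Without the Per2-/- library of day 7, Grm5 alone of the 4 kept its day 7 call, and Grm8 was at 0.74 (adjusted p = 0.0694), Grm4 at 1.04 (0.159) and Grm7 at 0.46 (0.190). Grm5 measured 16.4, 20.5 and 24.8 CPM on day 4, 47.4, 43.8 and 57.7 CPM on day 7, and 65.2, 50.7 and 66.9 CPM on day 10. Days 7 and 10 both lay above day 4 and overlapped each other (1.28, SE 0.13, and 1.65, SE 0.13, against day 4). Grm8 was at 8.51, 7.46 and 6.39 CPM on day 4 and 18.4, 24.2 and 22.6 CPM on day 10 (1.61, SE 0.20). Grm7 was at 13.9, 19.2 and 12.7 CPM on day 4 and 15.9, 13.8 and 15.03 CPM on day 10, which overlapped (0.06, adjusted p = 0.799).

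Of 19 GABA-A genes 10 were tested, of which 7 were called higher on day 7 (9.38% of all genes) and 8 on day 10 (24.6%), and none lower. Gabrb1 went from 6.05, 5.14 and 5.59 CPM on day 4 to 12.3, 8.76 and 18.6 CPM on day 7 and to 55.0, 16.6 and 28.4 CPM on day 10. Its 3 days overlapped only between days 7 and 10, and both were called higher than day 4 (1.20, SE 0.30, and 2.51, SE 0.28). Gabra2 went from 1.74, 1.88 and 1.28 CPM on day 4 to 3.26, 1.91 and 10.8 CPM on day 7 and to 15.6, 8.75 and 15.6 CPM on day 10, a log2 fold change of 1.58 (0.44) on day 7 and of 2.93 (0.40) on day 10. Here too only days 7 and 10 overlapped, and the Per1-/- library of day 7 was near those of day 4. Gabrg1, a gamma subunit, and Gabra4 and Gabrg3, an alpha and a gamma subunit, were also called higher on both days, with day 10 fold changes of 2.59 (0.34), 1.30 (0.30) and 2.49 (0.33). These 5 genes kept their day 10 call without any single library, but each lost its day 7 call without the Per2-/- library of day 7, where Gabra2 was at 0.68 (adjusted p = 0.370), Gabrb1 at 0.79 (0.178), Gabrg1 at 0.95 (0.123), Gabra4 at 0.71 (0.264) and Gabrg3 at 0.95 (0.222). Each also lost it without the WT or the Per2-/- library of day 4, with adjusted p from 0.0546 to 0.162, and Gabrb1 and Gabra4 without the Per1-/- library of day 7 (0.0525 and 0.0775).

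Glrb was flat by comparison, at 97.7, 95.5 and 100.3 CPM on day 4 and 115, 137 and 92.2 CPM on day 10, where the days overlapped and the adjusted p was 0.0458 (0.29, SE 0.11). The call was lost without any 1 of 7 libraries (adjusted p 0.0588 to 0.298), and with cells classed one at a time Glrb was called lower (-0.39, adjusted p = 0.0068). Glra3 was called higher as well (3.39, SE 0.72) but had at most 1.59 CPM in a library, was not tested without the WT or the Per2-/- library of day 10, and was not called with cells classed one at a time (0.89, adjusted p = 0.145).

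Of 5 nicotinic genes tested 3 were called lower on day 10 (23.8% of all genes) and none higher, and of 4 serotonin receptor genes 1 was called lower and 1 higher. Chrna4 measured 19.3, 16.6 and 14.0 CPM on day 4, 12.2, 12.6 and 10.9 CPM on day 7, and 1.59, 5.07 and 3.51 CPM on day 10. The libraries of the 3 days did not overlap, but the day 7 difference missed the threshold (-0.48, adjusted p = 0.139), while the gene fell by 2.10 on the log2 scale on day 10 (SE 0.25, adjusted p = 5.41e-05). Its partner Chrnb2 stayed at 16.5 to 24.3 CPM in all libraries (-0.03, SE 0.13, adjusted p = 0.889). Htr3a was at 35.0, 47.9 and 38.5 CPM on day 4, 48.0, 33.9 and 30.1 CPM on day 7, and 3.18, 19.6 and 7.03 CPM on day 10 (-1.97, SE 0.33, adjusted p = 0.000557).

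Day 10 lay below day 4 for Htr3a in all 3 genotypes, least in the Per1-/- library, but in the Per2-/- libraries alone when cells were classed one at a time from their own marker UMI. Chrna7, the subunit of the homomeric alpha-7 receptor, was called lower (-0.83, SE 0.23, a call lost without any 1 of 3 libraries), as was Chrnb1, a subunit of the muscle receptor, which went from 10.4, 9.09 and 11.4 CPM to 0.318, 2.76 and 2.53 CPM (-2.25, SE 0.34). With Grin2c these were the 5 receptor genes called lower on day 10, and Chrna7, Chrnb1 and Grin2c are named as the rest of that count after their values were seen. Htr2c, a G protein-coupled serotonin receptor, rose on both days, from 0.718, 0.333 and 0.639 CPM to 3.39, 3.05 and 4.07 CPM on day 7 and 4.45, 2.99 and 2.86 CPM on day 10 (2.65, SE 0.36, and 2.66, SE 0.37). Of the 42 receptor genes tested, 23 were called higher and 5 lower on day 10, where 48.5% of all 13896 genes tested were called, 24.6% higher and 23.8% lower. The median log2 fold change of the 42 tested was 0.89 against -0.0184 for all genes. The 10 with the smallest p kept their call without any single library.

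**Figure D3:**
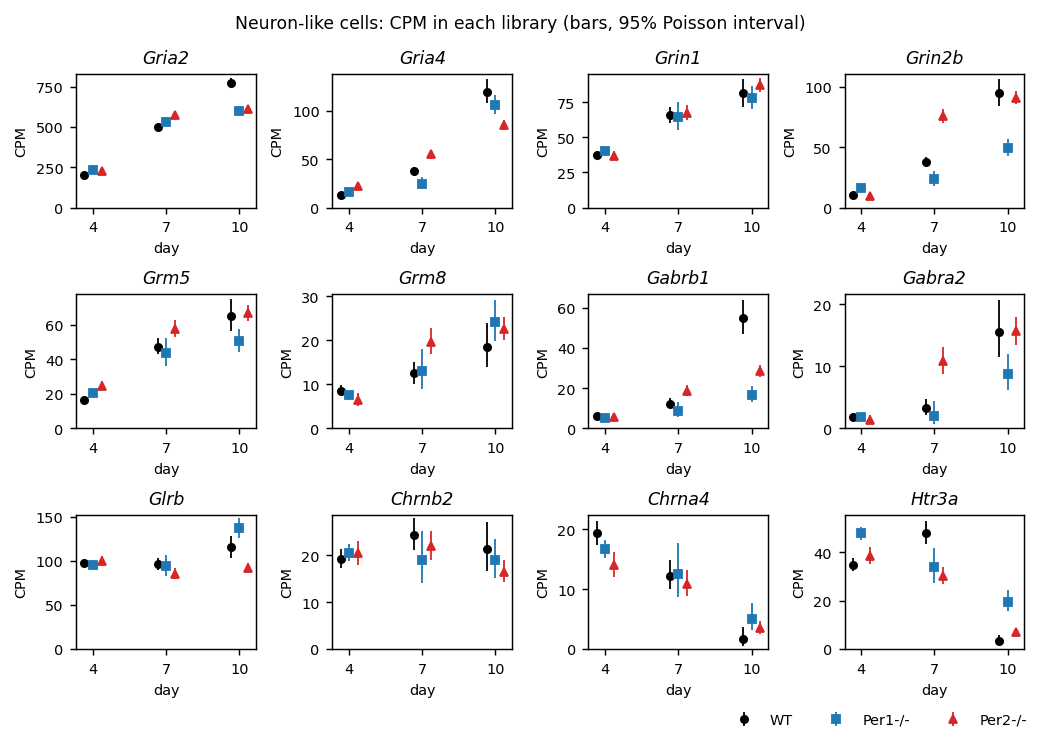
CPM of 12 receptor genes in neuron-like cells by day, 1 point per library (black circles WT, blue squares Per1-/-, red triangles Per2-/-) with 95% Poisson intervals. Gria2, Gria4, Grin1, Grin2b, Grm5, Grm8, Gabrb1 and Gabra2 are higher on day 10 than on day 4 in every genotype, Chrnb2 is level, and Chrna4 and Htr3a are lower on day 10.

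The cells that made up the neuron-like class differed between days and libraries. The neuron-like class was 3 clusters, of which clusters 6 and 16 held nearly all neuron-like cells of days 4 and 7 and cluster 19 held 91.5% to 97.3% of those of day 10. In the Per1-/- library of day 7, cluster 6 gave 6.76% of the neuron-like cells and cluster 16 gave 92.8%, where cluster 6 gave 71.1% and 80.4% in the WT and Per2-/- libraries. A pair of repeats of the day 7 test within 1 cluster was chosen after seeing the data. Within cluster 16 alone 14 of 27 tested receptor genes were called (13.9% of all genes), and within cluster 6 alone 0 of 39 by edgeR (0.356% of all genes), where the Per1-/- library of day 7 has 15 cells. The fold changes in cluster 6 alone were 0.78 for Gria2, 1.27 for Grm5, 1.30 for Gria4 and 1.98 for Grin2b, with adjusted p of 0.48, 0.152, 0.0811 and 0.108. In cluster 16 alone the same genes, all called higher, had fold changes of 1.25, 1.02, 1.12 and 1.88. For these genes the clusters thus differed more in calls than in fold changes, which does not hold for every gene. Gabra2 was at 2.07 in cluster 6 and 0.81 in cluster 16, Grin3a at 0.91 and 1.91, and Chrnb2 at 0.36 and -0.23. The count of 24 on day 7 was 9 without the Per2-/- library of day 7, 12 without the WT library of day 4 and 13 without the Per2-/- library of day 4. The shares of all genes called in these fits are not given here, so the lower counts cannot be set against a background. Grin3a (0.93, adjusted p = 0.0512) was among 15 of the 24 genes that lost their day 7 call without the Per2-/- library of day 7. The sum of the 19 neuron markers in the class also differed between days, at 4357 to 4921 CPM on day 4, 6602 to 8448 CPM on day 7 and 7469 to 9051 CPM on day 10, and its part in the result was not tested.

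For Chrna4 and Htr3a the day 10 difference depended on how the class was drawn. Cluster 10, left unnamed, with 2860 cells with Gcg, Pou3f2 and Nts among its leading genes, held Syt1 in 84.9% and Snap25 in 43.7% of its cells but did not pass the marker limits for neuron-like cells. It had 505 to 893 cells in the day 4 libraries, 98 to 322 on day 7 and 9 to 24 on day 10. Its receptor genes differed from those of the neuron-like class, with Gria2 at 292 CPM, Glrb at 184, Gria4 at 121, Htr3a at 0.60 and Chrna4 at 0.21 CPM. In clusters 6, 16 and 19 Chrna4 was at 15.9, 15.2 and 2.93 CPM.

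When cells were classed one at a time instead of by cluster, the neuron-like class had 8051 cells, 989 of them from cluster 10, of which 0, 4 and 8 were in the day 10 libraries. Another 1492 came from clusters other than 6, 10, 16 and 19, of which 186, 150 and 235 were in the day 10 libraries, where the class had 327, 420 and 952 cells. Chrna4 was then at 18.4, 14.8 and 17.1 CPM on day 4 and 11.2, 26.0 and 8.5 CPM on day 10 (-0.22, adjusted p = 0.582). Htr3a was at 33.4, 42.3 and 52.9 CPM on day 4 and 40.4, 78.03 and 24.9 CPM on day 10, higher on day 10 in the WT and Per1-/- libraries and lower in the Per2-/- library (0.08, adjusted p = 0.856). The days of both genes thus overlapped in that class, whereas 21 receptor genes were called higher on day 10 and 3 lower, against 23 and 5 with clusters, of which 19 higher and 2 lower calls were shared. The share of all genes called in that fit is not given here, so its counts have no background beside them.

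Between genotypes no receptor gene was called in neuron-like cells. This comparison asks for a difference shared by the 3 days, the days serving as the repeats of a genotype. For Per1-/- against WT edgeR called 0 of 42 receptor genes (0% of all genes), with 2 at an unadjusted p under 0.05, and for Per2-/- against WT 0 (0.036% of all genes, 0.0288% higher and 0.0072% lower), with 5 at an unadjusted p under 0.05. Per1-/- against Per2-/- gave 0 as well (0.0072% of all genes), with 9 at an unadjusted p under 0.05. DESeq2 and limma-voom also called none in the 3 comparisons. The smallest p for Per1-/- against WT belonged to Grik1 (-0.86, SE 0.31, adjusted p = 0.9999) and Gabrb1 (-0.81, SE 0.29). Without the WT library of day 10, in which Gabrb1 was at 55.0 CPM, its difference was -0.33.

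For Per2-/- against WT the smallest p belonged to Grin3a (0.65, SE 0.19, adjusted p = 0.885) and Grin2a (1.10, SE 0.38, adjusted p = 0.999). Grin3a was higher in the Per2-/- library than in the WT library on day 4 (10.7 against 5.18 CPM) and day 7 (19.4 against 11.2 CPM) and at 17.2 CPM in both on day 10. For Per1-/- against Per2-/- it belonged to Grik5 (-0.48, SE 0.12, adjusted p = 0.554). Without the filter on low counts edgeR called 1 receptor gene for Per1-/- against WT (Gabrb1, adjusted p = 0.0117) and 6 for Per1-/- against Per2-/-, among them Grik5 (adjusted p = 0.0144). The share of all genes called without the filter is not given here, so these counts have no background beside them. With 3 libraries a genotype, a missed threshold does not show that the genotypes are alike.

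Receptors need partner proteins to reach and hold a synapse. Of 32 genes for AMPA, kainate and NMDA receptor partners, 29 were tested in neuron-like cells, with 10 called higher and 1 lower on day 7 and 15 higher and 5 lower on day 10. For this and the following lists, 9.38% of all genes were called higher and 7.31% lower on day 7, and 24.6% higher and 23.8% lower on day 10. Cnih2 and Cacng2, both auxiliary subunits of AMPA receptors, were among those called higher on both days. Cacng2 was at 2.72, 2.37 and 1.996 CPM on day 4 and at 23.5, 23.0 and 20.4 CPM on day 10 (3.31, SE 0.16), and Cnih2 at 44.1, 43.0 and 44.1 CPM on day 4 and at 237, 158 and 249 CPM on day 10 (2.34, SE 0.14). In the sum over libraries, which weighs them by their depth, the list was led by the scaffold genes Homer2, called lower on day 10 (-0.60), and Shank1, called higher (0.71), although on day 10 the mean of the 3 libraries was higher for Cnih2 (214.7 CPM) than for Shank1 (121.9) or Homer2 (82.7).

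All 9 genes for GABA-A and glycine receptor partners were tested, with 3 called higher on day 7 and 7 on day 10, and none lower. Shisa7, an auxiliary GABA-A subunit, rose by 2.10 (SE 0.20) on day 7 and by 2.47 (0.19) on day 10, and Nlgn2, an adhesion protein of inhibitory synapses, by 0.67 on day 10. Gabarap, which takes part in GABA-A receptor traffic, was the most abundant of the list at 482 to 647 CPM in the 9 libraries. Of 10 nicotinic receptor partners 8 were tested, with 2 called higher and 1 lower on day 7 and 1 higher and 2 lower on day 10. Ly6h, a membrane protein that restrains nicotinic receptors, rose from 13.7, 16.7 and 16.5 CPM on day 4 to 116, 113 and 196 CPM on day 7 and 324, 271 and 340 CPM on day 10. Its log2 fold changes of 3.13 (0.15) and 4.38 (0.16) were above the fitted value of every receptor gene tested in the class. Lrp4, the agrin receptor that organises the muscle endplate, fell by 1.43 on day 7 and by 3.74 on day 10, and Tmem35a, a chaperone of nicotinic receptors, was at 24.4 to 38.1 CPM.

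Of 20 genes for making and moving transmitters, 8 were tested, with 1 called higher on day 7 and 3 higher and 2 lower on day 10. Slc17a6, the vesicular glutamate transporter of subcortical neurons, went from 3.44, 2.73 and 2.32 CPM on day 4 to 13.0, 7.60 and 14.6 CPM on day 10 (2.09, SE 0.24). Ache, which breaks acetylcholine down, rose by 2.85 on day 10, and Slc5a7, the choline transporter, fell by 1.54. Of 14 receptor genes outside the symbol rule, 6 were tested, with 3 called higher on day 7 and 5 on day 10, among them the 2 subunits of the GABA-B receptor, Gabbr1 (1.20, SE 0.11, on day 10) and Gabbr2 (2.36, SE 0.18). Chrm3, a muscarinic receptor, was at 11.8 to 19.8 CPM in all libraries.

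Fibroblast-like cells had other leading receptor genes than neuron-like cells. Gria3 led at 67.6 CPM (46.4 to 85.8 over libraries), followed by Grin3a at 24.1 CPM (7.37 to 35.4) and Grik5 at 21.0 CPM (12.5 to 26.9). Of 51 receptor genes tested, 1 was called on day 7 (2.25% of all 16963 genes) and 4 on day 10 (16.9%, of which 9.18% higher and 7.73% lower). Their median log2 fold changes were 0.14 and 0.05, beside 0.0110 and 0.0123 for all genes. Gabrr2, a rho subunit of GABA receptors known from the retina, was called higher on both days, at 0.0194, 0.0604 and 0.0316 CPM on day 4, 0.114, 0.341 and 0.162 CPM on day 7, and 0.289, 0.761 and 0.576 CPM on day 10. Days 7 and 10 both lay above day 4 and overlapped each other (2.40, SE 0.35, and 3.85, SE 0.34, adjusted p = 0.000733), though its level stayed below 1 CPM.

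Also on day 10, Grin2d, an NMDA subunit, was called higher (0.57, SE 0.15), and Htr1f, a serotonin receptor, lower, at 0.601, 0.338 and 0.393 CPM after 1.76, 1.56 and 1.56 CPM (-1.94, SE 0.27). Gria3 itself was called lower (-0.31, SE 0.08, adjusted p = 0.0468), at 82.6, 54.6 and 46.4 CPM on day 10 after 85.8, 72.5 and 61.6 CPM on day 4, with overlapping days. The Gabrr2 call of day 7 was lost without any 1 of the 6 libraries of days 4 and 7, with adjusted p from 0.0662 to 0.142. Grin2d lost its call without any 1 of the 9 libraries (adjusted p 0.0554 to 0.153), and Gria3 without any 1 of 8, the WT library of day 10 excepted (0.0627 to 0.158). Grin3a and Grik5 were lowest in the Per1-/- libraries of days 7 and 10, at 7.37 and 10.5 CPM and at 12.5 and 14.3 CPM, a difference for which no test was run in this class.

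A direct test of whether the day difference differed between neuron-like and fibroblast-like cells of the same libraries called 5 of 61 receptor genes on day 7 (11.2% of all 17191 genes, 4.51% with a larger and 6.71% with a smaller change in neuron-like cells) and 23 on day 10 (36.8%). Of the 23, 17 had a larger and 6 a smaller change in neuron-like cells, where 17.3% and 19.5% of all genes did. The 23 of 61 are 37.7%, near the share of all genes, and the 5 of day 7 are 8.2%, below it. On day 10 the genes with a larger change included Gabrb1, Gabra2 and Gria4, with differences of log2 fold changes of 2.69 (0.23), 3.57 (0.37) and 3.12 (0.37). Chrna4 (-3.37, SE 0.43) and Htr3a (-2.75, SE 0.49) were called in the other direction. In fibroblast-like cells Chrna4 and Htr3a had positive and uncalled day 10 differences, at low levels and with overlapping days. The mean of the libraries there was 0.27 CPM on day 4 and 0.54 CPM on day 10 for Chrna4, and 0.29 and 0.44 CPM for Htr3a. These calls do not hold for Chrna4 (-0.87, adjusted p = 0.17) and Htr3a (-0.11, adjusted p = 0.926) when cells are classed one at a time.

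**Figure D4:**
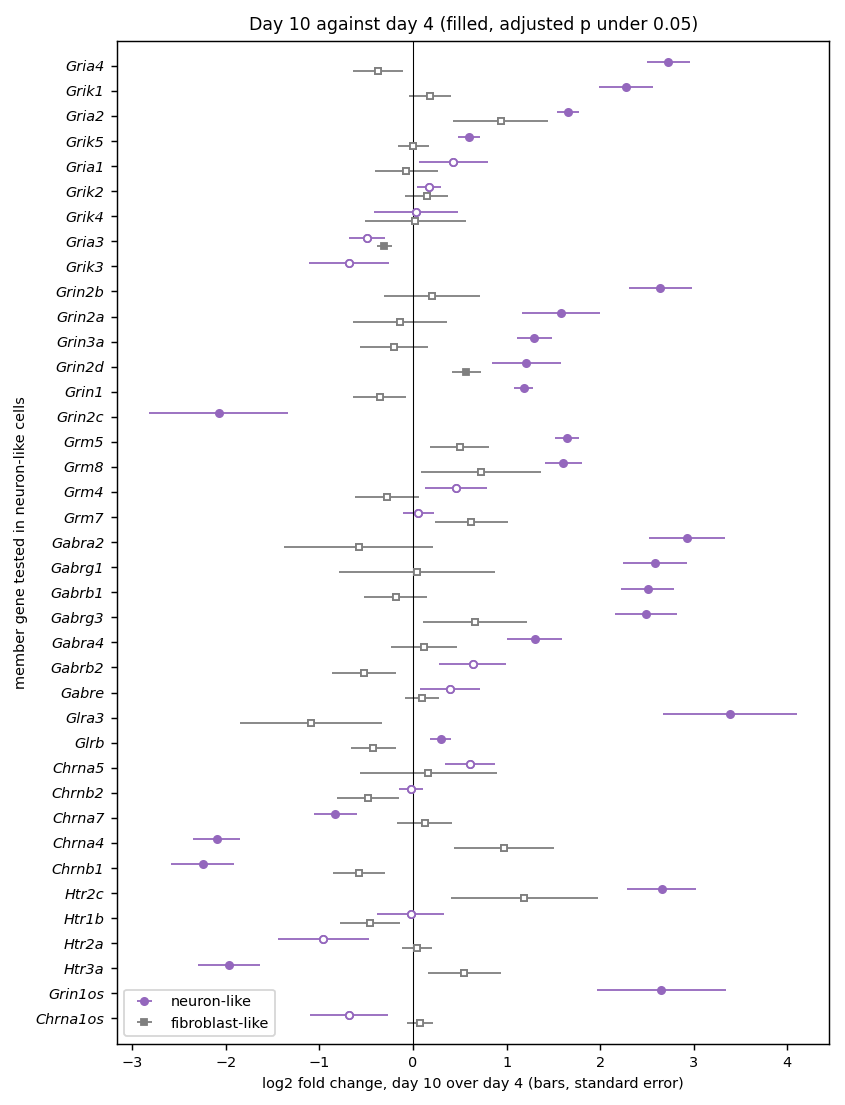
Log2 fold change of day 10 over day 4 with its standard error for 39 of the receptor genes tested in neuron-like cells (purple circles) and, where tested, in fibroblast-like cells (grey squares), filled where the adjusted p was under 0.05. Glra3 is farthest to the right at 3.39, Chrnb1, Chrna4, Grin2c and Htr3a are farthest to the left, and the fibroblast-like values of the same genes lie between -1.09 and 1.19, with Gria3 and Grin2d filled.

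Skeletal muscle-like cells carried 3 genes of the nicotinic receptor of embryonic muscle together with genes of neuronal receptors. These cells were cluster 8, which also met the marker limits for neuron-like cells. Its mean log2 fold over the other cells was 3.78 for muscle markers and 1.02 for neuron markers. Snap25 was found in 20.4% and Syt1 in 26.0% of its cells. The muscle nicotinic receptor of the embryo is built from an alpha subunit with beta 1, delta and gamma subunits, and the genes of the last 3 were Chrnb1 at 16.5 CPM (12.7 to 20.3 over libraries), Chrnd at 3.65 CPM (2.60 to 7.26) and Chrng at 4.06 CPM (1.39 to 9.36). Each had its highest class level there, and for each every muscle-like library was above every neuron-like library. Chrnd and Chrng were named after their values were seen. More abundant were Htr3a at 71.4 CPM (44.6 to 122), Chrna4 at 45.4 CPM (30.2 to 74.9) and Grin2a, an NMDA subunit, at 22.9 CPM (6.97 to 39.5).

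Chrnd and Chrng lie side by side on chromosome 1 (GRCm38, 87190607 to 87212694). A CAGCTG motif, an E-box that myogenic factors can bind and which reads the same on both strands, was searched in the 250 bases before the start of each gene in the RefSeq promoter table, which held 57 of the 78 receptor genes. It was in 8 of 57 (14.0%) and in 3979 of 27025 genes overall (14.7%), so the receptor genes held it at the background share. Chrng was the only receptor gene with 2 copies, 155 and 132 bases before its start, and the stretch that holds them is shown for that reason, from RefSeq on GRCm38.p6 at chr1:87205631-87205709, plus strand, inside the Chrng gene model of GENCODE but outside its exons, with the motifs in capitals.
Chrng: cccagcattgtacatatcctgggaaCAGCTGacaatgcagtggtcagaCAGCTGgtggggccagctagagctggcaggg
The other 7 genes with the motif were Chrna9, Chrnb4, Chrne, Gabrp, Glra3, Htr2b and Htr5a, with 1 copy each. A match is a description of the letters and not of binding.

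Over time the muscle-like class changed in 7 of 34 tested receptor genes on day 7 (6 higher, 1 lower; 2.06% of all 13332 genes called, 1.48% higher and 0.578% lower) and in 12 on day 10 (11 higher, 1 lower; 10.1%, 6.02% higher and 4.03% lower). With cells classed one at a time all of these calls were lost on both days. The median log2 fold changes of the 34 were 0.50 and 0.55, beside -0.00153 and -0.00287 for all genes. Chrna4 was at 30.2, 33.3 and 32.9 CPM on day 4, 53.7, 74.9 and 55.4 CPM on day 7, and 50.4, 49.2 and 54.9 CPM on day 10. Days 7 and 10 both lay above day 4 (0.91, SE 0.13, adjusted p = 0.0120, and 0.68, SE 0.14, adjusted p = 0.0150), which is the opposite direction to the same gene in neuron-like cells, although the difference between these 2 classes was not tested. With cells classed one at a time neither call held, with day 10 differences of -0.23 in muscle-like and -0.22 in neuron-like cells. Gabrr2 went from 0.116, 0.815 and 0.332 CPM to 2.73, 6.14 and 2.11 CPM on day 7 and 2.08, 5.14 and 2.62 CPM on day 10 (3.08, SE 0.43, and 2.95, SE 0.46). Htr1b was called lower on both days, at 6.82, 6.68 and 6.64 CPM on day 4 and 4.16, 2.40 and 2.62 CPM on day 10 (-1.56, SE 0.29, and -1.20, SE 0.32). The 15 fibroblast markers summed to 5284 to 7176 CPM in the muscle-like class on day 4. Their sum was 4017 to 5392 CPM on day 7 and 2899 to 4413 CPM on day 10. Htr1b was at 9.38 CPM in fibroblast-like cells, and the part of these markers in its difference was not tested.

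Further genes were called higher in muscle-like cells. Gria2 was at 8.90, 7.09 and 14.4 CPM on day 4, 21.4, 17.2 and 40.5 CPM on day 7, and 43.1, 19.2 and 38.9 CPM on day 10 (1.33, SE 0.19, and 1.71, SE 0.19). Grin1 (1.51 and 1.86) and Grin2b (1.33 and 1.27) were called on both days, and Glrb (0.87), Grik2 (2.55), Grm5 (1.43) and Chrnb2 (1.12) on day 10. The 19 neuron markers summed to 989 to 1448 CPM in the muscle-like class on day 4, 1662 to 2392 CPM on day 7 and 1794 to 2810 CPM on day 10, none of them at 0, so that neuron markers moved with these genes.

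A repeat chosen after seeing the data therefore kept the 1928 of 2974 muscle-like cells that held no UMI of the neuron genes Snap25 and Syt1, a choice that also favours shallow cells. In those cells 1 of 27 tested receptor genes was called on day 7 (Gabrr2, 3.43, SE 0.51; 0.199% of all genes) and 2 on day 10 (Gabrr2, 3.69, SE 0.55, and Grik2, 3.05, SE 0.56; 3.28%). Gria2 had 3.32 CPM there in place of 19.5, with uncalled differences of 0.69 and 1.78. Htr3a was also lower there, at 40.9 CPM in place of 71.4, while Chrna4 was at 41.9 CPM, Grin2a at 18.5 CPM and Chrnb1 at 18.8 CPM. Grin2b had an uncalled difference of 1.38 on day 7 and of -0.16 on day 10 (adjusted p = 0.9525), where the sign turned. Chrna4 had like differences of 0.97 and 0.69 with adjusted p of 0.0529 and 0.0795.

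Of the 9 libraries, leaving 1 out changed the muscle-like day 7 count of 7 to 1 without WT of day 4 or Per1-/- of day 7, to 3 without WT or Per2-/- of day 7 and to 4 without Per2-/- of day 4. The day 10 count of 12 became 7 without WT of day 4 or WT of day 10 and 8 without Per2-/- of day 4 or of day 10. Each of the 7 day 7 calls was lost without at least 1 library. On day 10 Gria2, Grin1, Gabrr2, Glrb and Grik2 kept their calls without any single library. Chrna4 lost its call without any 1 of 5 libraries (adjusted p 0.0502 to 0.0663), and Grm5 and Grin2b without any 1 of 4.

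**Figure D5:**
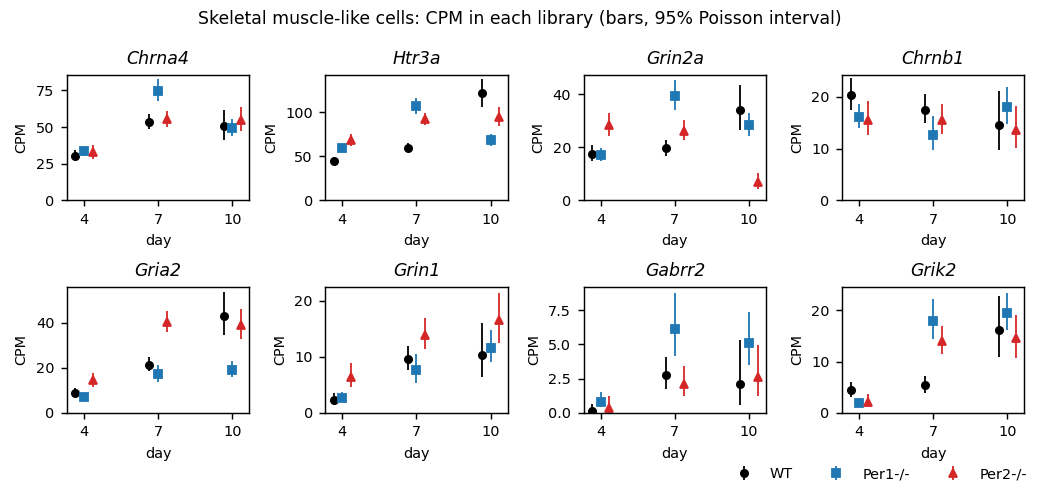
CPM of 8 receptor genes in skeletal muscle-like cells by day, 1 point per library (black circles WT, blue squares Per1-/-, red triangles Per2-/-) with 95% Poisson intervals. Chrna4, Gria2, Grin1, Gabrr2 and Grik2 have all day 7 and day 10 libraries above those of day 4, while Htr3a, Grin2a and Chrnb1 overlap between days.

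The remaining classes are described by their leading receptor genes. Astrocyte-like cells had the highest level of Gabrb1 of any named class, at 144 CPM (80.9 to 268 over libraries), with Gria3 at 93.9 CPM (50.3 to 126) and Gabra4, an alpha subunit of GABA-A receptors outside the synapse, at 51.7 CPM (38.9 to 108). Among the named classes they were also highest in 9 of 19 GABA-A genes, where 14.1% of all genes were highest there. Some of these were low or near another class, as Gabrq (0.19 CPM against 0.13 in fibroblast-like cells) and Gabrb2 (2.17 against 1.75 in neuron-like cells). Unnamed cluster 10 had more Gabra2 (13.1 against 8.28 CPM) and Gabrb2 (5.80 CPM) than astrocyte-like cells. The WT and Per1-/- libraries of day 10 held only 21 and 14 astrocyte-like cells. Schwann-like cells were led by Gria3 at 48.4 CPM (17.2 to 78.1) and Grik2, a kainate subunit, at 47.0 CPM (21.9 to 66.2). Grik2 was thereby higher in Schwann-like than in neuron-like cells, where the libraries gave 13.8 to 23.8 CPM, with a small overlap of the ranges.

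Mesothelial-like cells had Gria3 at 100.2 CPM (13.5 to 116), Gabra4 at 15.7 CPM and Gabrb1 at 14.8 CPM, and chondrocyte-like cells Gria3 at 60.9 CPM (35.9 to 72.2), Grik5 at 21.7 CPM and Gria1 at 10.2 CPM. The low end of the mesothelial-like range came from the WT library of day 10, with only 10 such cells and 74036 UMI. No chondrocyte-like cell came from day 4 and only 1 and 10 from the WT and Per1-/- libraries of day 7. Gria1 was at 53.1, 5.09 and 1.58 CPM in the day 10 libraries, and at 3.2 CPM in the sum without the WT library of day 10. In macrophage-like cells the 1 receptor gene with at least 3 CPM was Htr2b, a G protein-coupled serotonin receptor, at 3.25 CPM (2.97 to 3.55 by counting, 0.582 to 7.29 over libraries). Gria3 was thus among the 3 leading receptor genes of 5 of the 8 named classes and had its lowest named level, after macrophage-like cells, in neuron-like cells.

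Many of these genes sit in groups on the genome (GRCm38, GENCODE M21). Gria2 and Glrb, the most abundant pair in neuron-like cells, are neighbours on chromosome 3 between 80681450 and 80913660. Gabrg1, Gabra2, Gabra4 and Gabrb1 lie together on chromosome 5 between 70751047 and 72149037, and all 4 were called higher in neuron-like cells on day 7 and on day 10, the day 7 calls being those lost without the Per2-/- library of day 7. Of all genes tested, 9.38% were called higher on day 7 and 24.6% on day 10. Not every group was called higher, as Chrnb1, which lies near Chrne on chromosome 11, was called lower on day 10. Grin1 and Grin1os overlap on opposite strands, so reads in the stretch they share can be told apart only where the counting used strand, which is not given in the sources used here. Gabra4 and Gabrb1 also overlap on opposite strands, but only at their starts, between 71658113 and 71658308. That stretch is away from the 3′ ends that the libraries measured.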

How the data were processed

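The deposited matrices hold whole-number UMI counts per gene and cell barcode, which the authors made from 10x Genomics 3′ libraries (v3.1 chemistry per the labels). Per the file headers Cell Ranger 4.0.0 made those of days 4 and 7 and Cell Ranger 6.0.0 those of day 10, while the labels name Cell Ranger 7.1 and mm10. The 30406 genes in both feature tables (31053 and 32285 genes) were used, which hold 99.29% to 99.92% of a library's UMI. Totals were 126625215 to 353198559 UMI per library, and depth sets the counting intervals.

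A barcode needed 3000 UMI or more, of which no more than 20% mitochondrial, which 81999 met, and 8442 were removed as doublets by a re-implementation of Scrublet's scheme, the number removed growing with the barcodes of a library. Cells of all libraries were clustered together (2000 variable genes, 30 components, 15 neighbours, Leiden resolution 1, leidenalg 0.10.2), without the receptor genes and partner lists, into 32 clusters. A cluster took a class name from at least 3 markers that were 2-fold higher and present in 10% of its cells. The mean log2 fold over all markers of that class also had to be at least 1. Where more than 1 class met both limits, the class with the largest mean was taken. Fibroblast-like clusters were named from the number of fibroblast markers present. Clusters stayed unnamed where no class met the marker limits, most barcodes were called doublets, markers of another class led, cells were very few or depth was far below that of their libraries, which left 19 named clusters in 8 classes. The authors' cell annotation was not used here.

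Levels are CPM of UMI summed over a class, with exact Poisson 95% intervals, and shares carry exact Clopper-Pearson 95% intervals. Where a level is 0, counts of up to 3 UMI remain possible. Macrophage- and fibroblast-like shares use up to 500 cells drawn per library. Tests used edgeR 4.0.16 in R 4.3.3: TMM, filterByExpr, a two-sided quasi-likelihood F-test on the 9 sums of a class with day and genotype as factors, and Benjamini-Hochberg adjustment over all genes tested at 0.05. The comparison of classes used 18 sums with library, class and class by day. Standard errors were derived from each fold change and its F statistic. The 1 library per genotype and day gives no replicate, so the genotypes repeat a day and the days repeat a genotype, and p-values measure only the spread between these libraries. On simulated data 82.7% of 2-fold and 99% of 4-fold changes were recovered for neuron-like cells on day 10 against day 4, over 13626 genes. The shares were 64% and 85% for fibroblast-like cells (16745 genes), 72.7% and 98% for skeletal muscle-like cells (13107 genes) and 60.6% and 74.7% for the comparison of classes (16487 genes). DESeq2 1.42.0, limma-voom (limma 3.58.1), other size factors, filters, classes and left-out libraries were alternatives. Counts from these alternatives are given without the share of all genes called in the same fit.

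The genes, lists and markers were chosen with earlier results of these data known. Named genes were the 3 highest of each family in neuron-like cells, the 3 highest of each other class at 3 CPM or more, up to 10 called genes per comparison by p, or the 2 with the smallest p where none was called. Of each list the 2 most abundant genes and up to 4 called genes were eligible for naming. Other genes are named where the text lists a whole count or says so. Values of some genes are not reported here, although totals and counts over the 78 genes and the tests include them, apart from 2 nicotinic genes left out throughout.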

Additional observations from a re-analysis of the deposited data

Results flagged for a closer look

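The test of whether the day difference differed between neuron-like and fibroblast-like cells of the same libraries (edgeR, 61 receptor genes) singled out the following values, all of them differences between log2 fold changes with day 4 as the reference, positive where the change was larger in neuron-like cells. On day 7 the test called 5 receptor genes: Grin2b at 2.42, Grm4 at 1.89, Grin1 at 1.20, Grik5 at 0.53 and Gria3 at -0.79. Of these, Grin2b kept its call without any single library. Gria3 lost it without the Per2-/- library of day 7 (-0.71, adjusted p = 0.0528), and Grm4, Grin1 and Grik5 without any 1 of 5 or more libraries, with adjusted p of at most 0.152, 0.143 and 0.105. When cells were classed one at a time, Gria3 had a difference of 0.17 in the other direction (adjusted p = 0.603).

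On day 10 the same test called 23 receptor genes. Among those with the smallest p were Gabrb1 at 2.69, Gabra2 at 3.57, Gria4 at 3.12, Chrna4 at -3.37, Htr3a at -2.75, Grin2b at 2.28, Glra3 at 4.48, Grik1 at 2.18 and Htr1a at 7.37. Apart from Htr1a, each of these kept its call without any single library. Htr1a kept it in the 7 such fits that tested it, and was not tested without the WT or the Per2-/- library of day 10. Htr1a, a G protein-coupled serotonin receptor, rests on very few molecules, with 0 UMI in the neuron-like cells of the 3 day 4 libraries and 4, 0 and 9 UMI in those of day 10, so its value is no estimate of a fold. Glra3 had at most 1.59 CPM in a neuron-like library. With cells classed one at a time Glra3 and Htr1a were at 1.61 and 2.26 and not called (adjusted p = 0.134 and 0.175), like Chrna4 and Htr3a.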

How the results depend on the processing

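No paired analysis was possible by replicate number because each genotype and day has 1 library, and the day tests compare days within genotypes through the genotype term instead. Limiting neuron-like cells to clusters with Snap25 and Syt1 left the same 3 clusters. Leaving out 1 library gave 9 to 26 called receptor genes in neuron-like cells on day 7 (24 with all libraries) and 23 to 28 on day 10 (28), 0 to 0 in each of the 3 genotype comparisons, 0 to 2 (1) and 2 to 4 (4) in fibroblast-like cells, 1 to 7 (7) and 7 to 12 (12) in muscle-like cells, and 1 to 10 (5) and 18 to 24 (23) in the comparison of classes. The number of receptor genes highest in neuron-like cells was 28 to 30 (29), and that of genes in at least 5% of neuron-like cells 19 to 20 (20). In neuron-like cells of day 7 the count was 0 in cluster 6 alone and 14 in cluster 16 alone. Without filterByExpr 1 gene was called for Per1-/- against WT and 6 for Per1-/- against Per2-/-. Fibroblast-like cells of day 7 gave 2 with DESeq2 and 0 with no genotype term. Muscle-like cells gave 0 on day 7 and 0 on day 10 with cells classed one at a time, a class of few cells, 1 on day 7 with no genotype term, and 1 and 2 in cells without a Snap25 or Syt1 UMI. The comparison of classes gave 11 with DESeq2, 10 with limma-voom and 8 with doublets kept on day 7, and 11 on day 10 with cells classed one at a time. That classing put 46 receptor genes highest in neuron-like cells, but it named no astrocyte-, mesothelial- or chondrocyte-like cells, so this count and the 29 cover unlike sets of classes. Signs turned with cells classed one at a time for Chrna4 in muscle-like cells of day 10 (-0.23), for Gria3 in the day 7 comparison of classes (0.17) and in neuron-like cells of day 7 (0.24), and for Glrb (-0.39) and Htr3a (0.08) in neuron-like cells of day 10, and for Grin2b in muscle-like cells of day 10 without Snap25 or Syt1 (-0.16). The causes were not tested. Over the genes named by p in each comparison and all alternatives, 872 values kept direction and side of the threshold, 132 lost the call, 3 gained it and 3 turned in direction. The filter left 36 of 78 receptor genes untested in neuron-like cells, for too few UMI.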
